A study of Homo sapiens with 12 samples.

Results

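Ceruloplasmin (CP) and the genes that handle iron and copper were followed in 2 triple-negative breast cancer cell lines, MDA-MB-231 and HCC70, treated with JQ1, an inhibitor that fills the pocket with which BET bromodomain proteins bind acetylated histones and so releases these coactivators from chromatin. CP was chosen by its measured fall in HCC70 under JQ1, and the other members were listed by name for their role in iron or copper handling: HEPH, TFRC, TF, FTH1, FTL, HMOX1, IREB2 and ACO1. Of these 9 genes, 4 were measured among the 14884 named genes (CP, HEPH, TF and HMOX1, each by 1 transcript cluster), and TFRC, FTH1, FTL, IREB2 and ACO1 were not analysed here. RNA was hybridised to 12 Human Gene 2.0 ST arrays, 3 for each of 4 groups: MDA-MB-231 with vehicle, MDA-MB-231 with JQ1, HCC70 with vehicle and HCC70 with JQ1. JQ1 was given at 500 nM for 72 h, and the vehicle was DMSO at 0.1%. The labels name no separate cultures for the 3 arrays of a group, so the p-values measure the spread between these arrays, which may be technical. All levels are the deposited log2 signals, in which a difference of 1 is a doubling. Levels of different genes are not set against each other.

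Iron moves between cells and blood in the ferrous state and is carried in blood in the ferric state, so its export is coupled to its oxidation. CP is a copper-containing ferroxidase of plasma made mainly by the liver as an acute phase protein, and hephaestin (HEPH) is its membrane-bound relative, best known in the gut. Transferrin (TF) is the plasma carrier of ferric iron, and heme oxygenase (HMOX1) opens the heme ring and releases its iron. These proteins are therefore read here by role: the ferroxidases first, then the carrier, the heme-degrading enzyme, and the other genes of iron and copper handling.

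The question was whether CP fell alone under JQ1. In HCC70 it did not: CP and HEPH were both lower with JQ1, HMOX1 was higher, and TF stayed near the bottom of the signal range. In MDA-MB-231 the CP signal was near the bottom of the range with and without JQ1, and HMOX1 read lower with JQ1, with a call that did not hold in every fit. Genes were tested by limma with Benjamini-Hochberg adjustment over all 14884 genes and called at an adjusted p under 0.05, and every adjusted p below comes from that fit. By this rule 21.7% of all genes were called under JQ1 in HCC70 (9.18% higher, 12.5% lower) and 27.8% in MDA-MB-231 (10.8% higher, 17% lower), so a single call is common. With quantile normalization or with arrays centred on their medians, the share of the called genes that were higher went from 38.8% to 51.4% or 51.1% in MDA-MB-231 and from 42.3% to 49.6% or 56.1% in HCC70. These scalings moved the median change of all genes by at most 0.07.

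CP, the plasma ferroxidase, stood at 9.99, 10.05 and 9.95 on the 3 HCC70 vehicle arrays and at 5.31, 5.78 and 5.46 on the 3 HCC70 JQ1 arrays. All 3 JQ1 arrays were far below all 3 vehicle arrays. The mean was 10.00 ± 0.0512 (SD, n = 3) with vehicle and 5.52 ± 0.244 with JQ1, a difference of -4.49 ± 0.158 (SE), or 22.4-fold lower. Of the 14884 genes CP had the largest measured fall in HCC70, followed by IFI44L, which fell at least 18.5-fold to a signal below the lower quartile. Because this fall chose CP, its values are a description in every comparison and carry no test.

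In MDA-MB-231 the CP signal was 3.89, 4.24 and 4.36 with vehicle and 4.36, 4.62 and 4.88 with JQ1. Both means, 4.16 ± 0.246 and 4.62 ± 0.259 (SD, n = 3), were below the group's lower quartile over all genes (4.77 and 4.81), and the highest vehicle array overlapped the lowest JQ1 array. The JQ1 minus vehicle difference was 0.46 ± 0.158 (SE), and with both groups at that signal no change is read from it. With vehicle, CP was at least 57.2-fold higher in HCC70 than in MDA-MB-231. In order, the group means ran from MDA-MB-231 vehicle through MDA-MB-231 JQ1 and HCC70 JQ1 to HCC70 vehicle, and the only neighbours in that order whose arrays overlapped were the MDA-MB-231 groups.

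**Figure D1:**
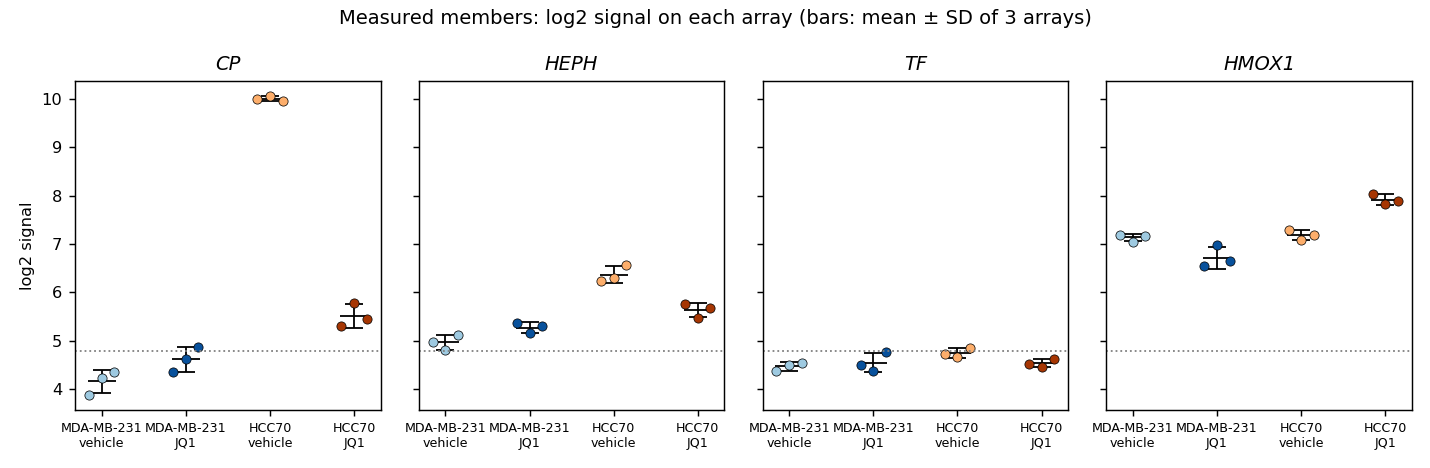
Log2 signal (y axis) of CP, HEPH, TF and HMOX1 on each of the 12 arrays by group (x axis), where points are arrays, bars are the mean ± SD of 3 arrays and the dotted line is the lower quartile of gene signals, between 4.77 and 4.81 in each group. CP drops from 10.00 to 5.52 in HCC70, HEPH from 6.37 to 5.64, HMOX1 moves up to 7.91, and TF stays near the dotted line.

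HEPH, the membrane-bound ferroxidase, was the other measured member that fell in HCC70. Its signal there was 6.24, 6.30 and 6.57 with vehicle and 5.76, 5.47 and 5.68 with JQ1. The arrays of the groups did not overlap, which held for 37.4% of all genes. The fall was 0.73 ± 0.119 on the log2 scale, or 1.66-fold (adjusted p = 0.00066), with 3 of 3 JQ1 arrays below every vehicle array.

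In MDA-MB-231 the HEPH signal was 4.97, 4.82 and 5.13 with vehicle and 5.37, 5.16 and 5.30 with JQ1. The JQ1 arrays lay just above the vehicle arrays without overlap, as for 38% of genes, and the difference of 0.30 ± 0.119 did not pass (adjusted p = 0.079). It passed without MDA-MB-231 vehicle array 3 (adjusted p = 0.044) and after median centring of each array (adjusted p = 0.038). The JQ1 effects of the lines differed by -1.04 ± 0.168 (adjusted p = 0.0011), in a comparison that called 15% of genes (9.02% more positive and 5.95% more negative in HCC70). With vehicle, HEPH was 2.63-fold higher in HCC70 than in MDA-MB-231 (adjusted p = 5.3e-07), in a comparison that called 47% of genes, and the arrays did not overlap, as for 55.2% of genes. These contrasts share arrays with one another. Both ferroxidases were thus higher in HCC70 than in MDA-MB-231 with vehicle, and both were lower in HCC70 with JQ1, CP 22.4-fold and HEPH 1.66-fold.

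The third multicopper ferroxidase, HEPHL1, was in the list of export genes and was below the lower quartile in all 4 groups. Its change was 0.077 in MDA-MB-231 (adjusted p = 0.55) and -0.18 in HCC70 (adjusted p = 0.16).

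RefSeq promoter sequence on GRCh38.p14 was at hand for HEPH and TF and not for CP or HMOX1. HEPH has 3 annotated starts. The 250 bases before the start of one, chrX:66163997-66164246 on the plus strand, are shown because HEPH was the other ferroxidase that moved. Capitals mark 1 match to the antioxidant response element (TGANNNNGC), found in 35.2% of 35116 promoter windows of this length, and 1 match to the C/EBP motif (TTNNGNAA), found in 33.2%. Both strands were searched, and the 2 matches do not overlap.
HEPH: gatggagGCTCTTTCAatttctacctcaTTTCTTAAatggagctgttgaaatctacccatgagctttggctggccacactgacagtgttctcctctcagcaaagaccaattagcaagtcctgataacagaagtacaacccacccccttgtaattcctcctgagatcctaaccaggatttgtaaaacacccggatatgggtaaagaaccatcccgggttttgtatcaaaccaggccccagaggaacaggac
The other HEPH windows, chrX:66162421-66162670 and chrX:66167500-66167749, each held 1 antioxidant response element match and no C/EBP match. None of the 3 held a GAS (TTCNNNGAA) or AP-1 (TGANTCA) match, motifs found in 6.57% of windows each, or a hypoxia response element (ACGTG or GCGTG), found in 43.2%. A match is a description of these letters only.

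TF, the plasma iron carrier, had a signal below the lower quartile in all 4 group means. On the HCC70 arrays it read 4.72, 4.67 and 4.86 with vehicle and 4.52, 4.46 and 4.63 with JQ1. On the MDA-MB-231 arrays it read 4.38, 4.51 and 4.54 with vehicle and 4.50, 4.39 and 4.76 with JQ1. The arrays overlapped in MDA-MB-231 and were narrowly apart in HCC70, where groups did not overlap for 37.4% of all genes. Neither change passed: 0.077 ± 0.106 in MDA-MB-231 (adjusted p = 0.65) and -0.22 ± 0.106 in HCC70 (adjusted p = 0.19). The HCC70 change passed when arrays were weighted by quality (adjusted p = 0.019). The vehicle difference between lines, 0.28 ± 0.106, passed narrowly (adjusted p = 0.047) and ended in 10 of the 12 fits that left out 1 array, so no difference in TF is read from it.

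HMOX1, which breaks down heme, was higher with JQ1 in HCC70. Its signal there was 7.29, 7.09 and 7.18 with vehicle and 8.04, 7.82 and 7.88 with JQ1. Every JQ1 array was above every vehicle array, a lack of overlap found for 37.4% of all genes. The rise was 0.73 ± 0.115, or 1.65-fold (adjusted p = 0.00055). In MDA-MB-231 the signal was 7.19, 7.05 and 7.16 with vehicle and 6.54, 6.98 and 6.64 with JQ1. All 3 JQ1 arrays were below the vehicle arrays there, a lack of overlap found for 38% of all genes, but JQ1 array 2 lay close to the vehicle arrays. The fall was 0.42 ± 0.115 (adjusted p = 0.016). The MDA-MB-231 call ended without vehicle array 1 (adjusted p = 0.057), without JQ1 array 1 (0.070), without JQ1 array 3 (0.056), with that line fitted alone (0.054) and under quantile normalization (0.065). The JQ1 effects of the lines differed by 1.14 ± 0.163 (adjusted p = 0.00043), and this call held in all 12 fits that left out 1 array. With vehicle the lines did not differ past the threshold (0.053 ± 0.115, adjusted p = 0.75).

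Among the other iron and copper genes, 66 of 101 listed were measured and 35 were not analysed here. In HCC70, 9 rose and 13 fell, or 33.3% called against the 21.7% of all genes, and their median change was -0.0053 against 0.0057 for all genes. In MDA-MB-231, 7 rose and 15 fell, again 33.3% against 27.8%, with a median of 0.0038 against 0.017. The MDA-MB-231 count turned on the scaling: 18 rose and 12 fell with quantile normalization, and 13 rose and 13 fell after median centring. In HCC70 these scalings gave 10 and 12, and 12 and 8, and array weights gave 16 and 19. CP was chosen by its HCC70 fall, so its place as the largest fall of the listed genes was given in advance. The next fall in HCC70 was that of MT1F at 3.99-fold. Of the HCC70 calls, 11 of 22 held in every fit that left out 1 array (3 rose, 8 fell), and of the MDA-MB-231 calls, 15 of 22 (5 rose, 10 fell). The count that rose in HCC70 was 3 without HCC70 vehicle array 1, 4 without vehicle array 2, JQ1 array 2 or JQ1 array 3, and 5 without vehicle array 3. The count that fell there was 8 without vehicle array 2 or JQ1 array 2. Genes named below with a verb of change held in all 12 such fits unless stated.

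**Figure D2:**
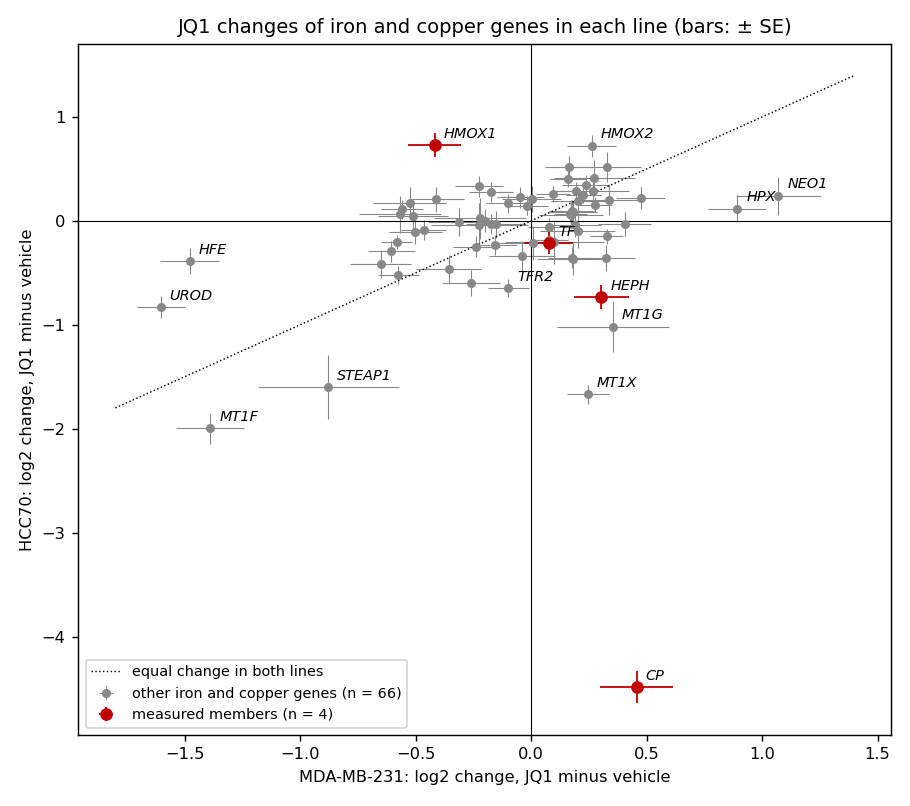
Change with JQ1 in MDA-MB-231 (x axis) against the change in HCC70 (y axis), both as log2 differences of 3 against 3 arrays, for the 4 measured members (red) and 66 other iron and copper genes (grey), with bars of ± 1 SE and a dotted line of equal change. CP, which was chosen by its HCC70 fall, lies at -4.49 on the HCC70 axis, with MT1F (-2.00), MT1X (-1.67) and STEAP1 (-1.60) next.

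Of the genes of iron uptake and delivery, 7 of 14 were measured: 2 fell and none rose in HCC70 (0 at an unadjusted limma p under 0.05), and 2 fell and 1 rose in MDA-MB-231. The called share was 28.6% in HCC70 against 21.7% of all genes, and 42.9% in MDA-MB-231 against 27.8%. TFR2, the transferrin receptor that senses iron-loaded transferrin in liver and erythroid cells, fell 1.57-fold in HCC70 (-0.65 ± 0.0880, adjusted p = 0.00018), where its vehicle arrays were at 6.70, 6.92 and 6.81 and its JQ1 arrays at 6.07, 6.27 and 6.14. In MDA-MB-231 the TFR2 change was -0.10 (adjusted p = 0.46), and the lines differed by -0.55 (adjusted p = 0.0095). STEAP1, of the STEAP metalloreductase family, fell at least 3.03-fold in HCC70, from a mean of 6.06 to one of 4.46, below the lower quartile (adjusted p = 0.0021). In MDA-MB-231 STEAP1 was below the lower quartile in both groups, and its call there (-0.88, adjusted p = 0.050) ended in 8 of the 12 fits without 1 array. CYBRD1, a ferric reductase of the gut surface, rose 1.26-fold in MDA-MB-231 (adjusted p = 0.0038) and read -0.15 in HCC70 (adjusted p = 0.19). MELTF, a membrane-bound transferrin homologue, fell 1.47-fold in MDA-MB-231 (adjusted p = 0.00049) and read 0.11 in HCC70 (adjusted p = 0.48). The lines' JQ1 effects differed for both, by -0.48 for CYBRD1 (adjusted p = 0.0067) and by 0.67 for MELTF (adjusted p = 0.0035).

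STEAP4, a metalloreductase that reduces iron and copper, was picked out after its values were seen because, like CP, it was high in HCC70 and low in MDA-MB-231 with vehicle. Its signal was 10.20, 10.23 and 10.39 on the HCC70 vehicle arrays and 10.47, 10.41 and 10.20 on the HCC70 JQ1 arrays. The groups overlapped, and the change was 0.088 ± 0.104 (adjusted p = 0.66). With vehicle, STEAP4 was at least 55.6-fold higher in HCC70 than in MDA-MB-231, where it lay at 4.31, 4.51 and 4.61.

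All 4 genes of iron storage and release were measured, and none kept a call without every array. In HCC70, NCOA4, the receptor that sends ferritin for degradation, read 0.24 (adjusted p = 0.035), PCBP2, an iron chaperone, read 0.29 (adjusted p = 0.035), and FTMT, mitochondrial ferritin, read 0.52 at a signal below the lower quartile (adjusted p = 0.023). The NCOA4 call ended without any 1 of the 6 HCC70 arrays. The PCBP2 call ended without HCC70 vehicle array 1 or 2 or JQ1 array 1 or 2, and the FTMT call without HCC70 vehicle array 1 or 2 or JQ1 array 3. In MDA-MB-231 NCOA4 read 0.23 (adjusted p = 0.042), and 0.059 was its adjusted p with the array number as a block. PCBP1, the related chaperone, read 0.063 in HCC70 (adjusted p = 0.65).

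Of the hepcidin pathway, which sets systemic iron, 5 of 7 genes were measured: 2 rose and 1 fell in MDA-MB-231, and 1 fell in HCC70. The called share was 60% in MDA-MB-231 against 27.8% of all genes, and 20% in HCC70 against 21.7%. HFE, the hemochromatosis protein, fell 2.79-fold in MDA-MB-231 (-1.48 ± 0.127, adjusted p = 2.1e-06), from 7.93, 8.11 and 7.70 to 6.60, 6.35 and 6.36. In HCC70 its change was -0.39 (adjusted p = 0.046), a call that ended in 9 of 12 fits without 1 array, and the lines differed by 1.09 (adjusted p = 0.0012). NEO1, neogenin, a receptor that binds hemojuvelin, rose 2.10-fold in MDA-MB-231 (adjusted p = 0.00072). It read 0.24 in HCC70 (adjusted p = 0.44), and the difference between the lines did not pass (adjusted p = 0.051). BMP6, the ligand that drives hepcidin, read 0.40 in MDA-MB-231 (adjusted p = 0.017), and its call ended without vehicle array 1 or 2 or JQ1 array 1 of that line. HAMP, hepcidin itself, was not called in either line (-0.20 in MDA-MB-231, adjusted p = 0.23, and 0.001 in HCC70).

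Of the 4 iron sensing genes, 2 rose in HCC70 (50%, against 21.7% of all genes called) and 1 in MDA-MB-231 (25%, against 27.8%). FBXL5, the iron-binding subunit of the ligase that degrades the iron regulatory proteins, rose 1.32-fold in HCC70 (0.40 ± 0.0782, adjusted p = 0.0023). It read 0.16 in MDA-MB-231 (adjusted p = 0.16), and the lines did not differ past the threshold (adjusted p = 0.18). EPAS1, the hypoxia factor HIF-2 alpha, rose 1.21-fold in MDA-MB-231 (adjusted p = 0.013; 0.062 with that line fitted alone). CISD1, an iron-sulfur protein of the outer mitochondrial membrane, read 0.33 in HCC70 (adjusted p = 0.036), and its call ended without any 1 of the 6 HCC70 arrays. The iron regulatory proteins themselves, ACO1 and IREB2, were not analysed here.

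Of the heme genes, 12 of 20 were measured: 2 rose and 4 fell in MDA-MB-231, and 2 rose and 1 fell in HCC70. Among these calls, PPOX (-0.57, adjusted p = 0.031) and FECH (-0.53, adjusted p = 0.026) in MDA-MB-231 each ended without at least 1 array. So did the call of UROS in HCC70 (0.26, adjusted p = 0.024). The called share was 50% in MDA-MB-231 against 27.8% of all genes, and 25% in HCC70 against 21.7%. UROD, an enzyme of the heme synthesis pathway, fell in both lines. In MDA-MB-231 it went from 8.96, 8.99 and 8.84 to 7.43, 7.36 and 7.21, or 3.04-fold (adjusted p = 1.8e-07). In HCC70 it went from 8.10, 8.25 and 8.37 to 7.24, 7.52 and 7.47, or 1.77-fold (adjusted p = 9.8e-05). No array of either JQ1 group reached the vehicle range of its line. Groups did not overlap for 38% of all genes in MDA-MB-231 and 37.4% in HCC70. The fall of UROD was larger in MDA-MB-231 (difference 0.78, adjusted p = 0.0032). HMOX2, the constitutive heme oxygenase, rose in HCC70 as HMOX1 did, from 7.19, 7.27 and 7.44 to 7.95, 8.04 and 8.07, or 1.65-fold (adjusted p = 0.00030). In MDA-MB-231 it read 0.26 (adjusted p = 0.088), and the difference between the lines did not pass (adjusted p = 0.058).

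In MDA-MB-231, HPX, the plasma scavenger of heme, rose 1.86-fold (adjusted p = 0.00015), ALAD, an early enzyme of heme synthesis, rose 1.39-fold (adjusted p = 0.0043), and FLVCR1, which exports heme, fell 1.52-fold (adjusted p = 0.00058). In HCC70, HPX read 0.12 (adjusted p = 0.62), ALAD 0.22 (adjusted p = 0.17) and FLVCR1 -0.29 (adjusted p = 0.059). Only for HPX did the lines differ past the threshold (-0.77, adjusted p = 0.010; ALAD 0.32, FLVCR1 0.19).

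Of 16 measured genes of mitochondrial iron and iron-sulfur cluster assembly, none rose by limma (1 in MDA-MB-231 and 0 in HCC70 at an unadjusted p under 0.05). In each line 5 fell, or 31.2%. Of all genes, 27.8% were called in MDA-MB-231 (17% lower) and 21.7% in HCC70 (12.5% lower). The 16 genes had a median change of -0.21 in MDA-MB-231 and -0.054 in HCC70. HSPA9, the chaperone mortalin, fell by 0.58 on the log2 scale in MDA-MB-231 (adjusted p = 3.4e-05), as did BOLA3, a factor of cluster transfer, 1.57-fold (adjusted p = 0.0026), and MMS19, of the cytosolic targeting complex, 1.38-fold (adjusted p = 0.0029). HSCB, the cochaperone of cluster transfer, fell 1.51-fold in HCC70 (adjusted p = 0.0040). The other 4 HCC70 calls and the other 2 MDA-MB-231 calls each ended without at least 1 array, of either line.

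Of 24 listed copper handling genes 17 were measured: 2 rose and 4 fell in HCC70, and none rose (2 at an unadjusted limma p under 0.05) and 3 fell in MDA-MB-231. The called share was 35.3% in HCC70 against 21.7% of all genes, and 17.6% in MDA-MB-231 against 27.8%. SCO1, which delivers copper to cytochrome c oxidase, fell 1.49-fold in MDA-MB-231 (adjusted p = 0.00031) and 1.43-fold in HCC70 (adjusted p = 0.00094). CCS, the copper chaperone of superoxide dismutase, rose 1.43-fold in HCC70 (adjusted p = 0.0025) and read 0.16 in MDA-MB-231 (adjusted p = 0.27). COMMD1, a copper export factor, fell 1.42-fold in MDA-MB-231 (adjusted p = 0.0054) and read -0.11 in HCC70 (adjusted p = 0.62). The other 3 HCC70 falls were metallothioneins.

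Metallothioneins are small cysteine-rich proteins that bind zinc and copper, and their genes lie in a cluster of near-identical copies, so array probes may not fully separate them. They were set apart from the copper list after their values were seen. Of 9 measured, 3 fell in HCC70 (33.3%, against 21.7% of all genes called) and 1 in MDA-MB-231 (11.1%, against 27.8%). MT1F stood at 8.82, 9.27 and 9.09 on the HCC70 vehicle arrays and at 7.14, 7.09 and 6.96 on the JQ1 arrays, a fall of 3.99-fold (adjusted p = 1.2e-06). In MDA-MB-231 it went from 7.38, 7.82 and 7.61 to 6.38, 6.29 and 5.97, a fall of 2.62-fold (adjusted p = 1.3e-05). MT1F was lower on every JQ1 array of both lines, where groups did not overlap for 37.4% of all genes in HCC70 and 38% in MDA-MB-231. The difference between the lines did not pass (-0.61, adjusted p = 0.071).

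MT1X stood at 11.27, 11.32 and 11.24 with vehicle and at 9.62, 9.56 and 9.65 with JQ1 in HCC70, a fall of 3.18-fold (adjusted p = 1.3e-07). In MDA-MB-231 it went from 9.24, 9.03 and 8.92 to 9.35, 9.23 and 9.35, a change of 0.25 (adjusted p = 0.065). MT1X therefore fell only on the HCC70 arrays, and the effects differed by -1.91 ± 0.130 (adjusted p = 1.9e-06). Its vehicle level was higher in HCC70 than in MDA-MB-231 by 2.21 (adjusted p = 6.3e-10). MT1G fell at least 2.03-fold in HCC70 (adjusted p = 0.0088), from 4.63, 5.64 and 5.41 to 4.51, 3.99 and 4.12, and this call ended without the 3 arrays numbered 3 that agreed least with their groups (adjusted p = 0.059). MT2A read -0.23 in HCC70 (adjusted p = 0.11) and MT1E -0.039 (adjusted p = 0.94), neither of which passed.

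**Figure D3:**
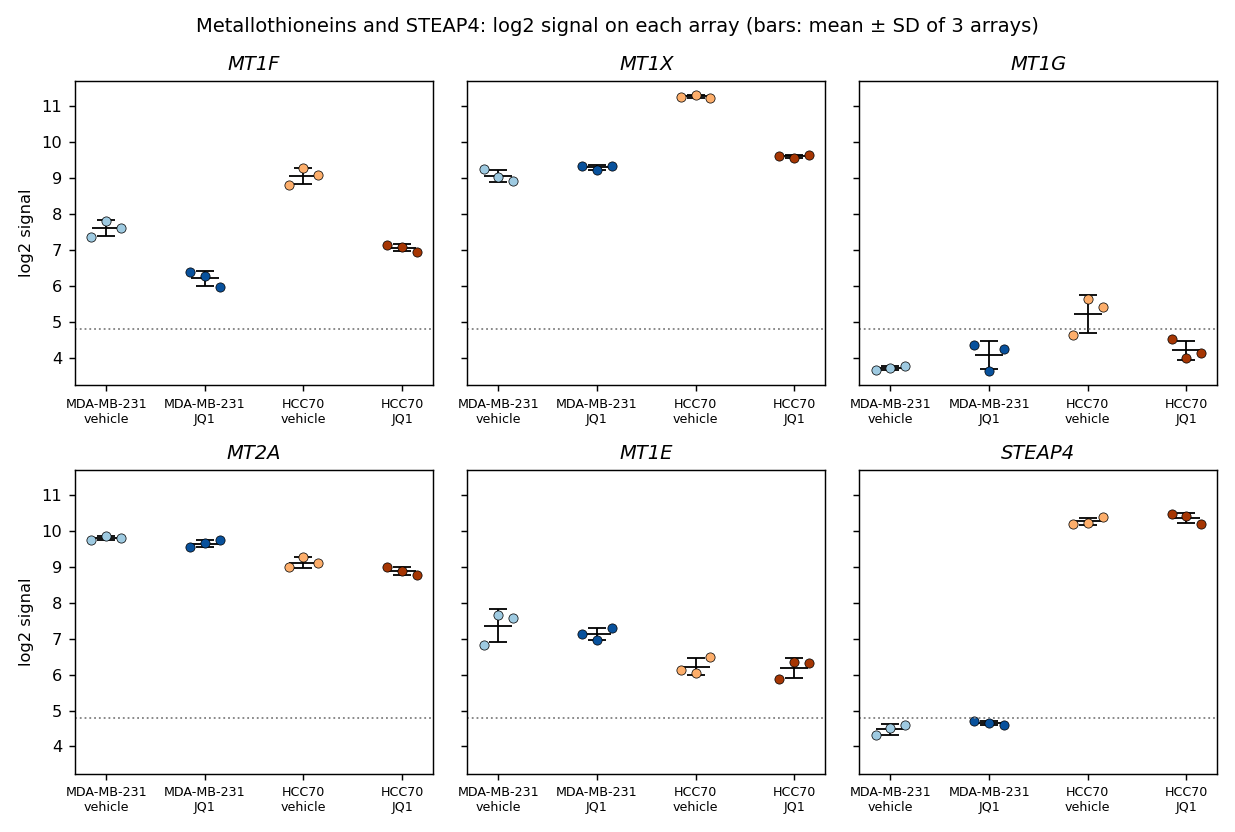
Log2 signal (y axis) of MT1F, MT1X, MT1G, MT2A, MT1E and STEAP4 on each of the 12 arrays by group (x axis), where points are arrays, bars are the mean ± SD of 3 arrays and the dotted line is the lower quartile of gene signals. MT1F falls in both lines, MT1X falls from 11.28 to 9.61 in HCC70, and MT2A, MT1E and STEAP4 did not pass in HCC70.

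RefSeq held promoter windows for MT1X, which fell in HCC70, and for MT2A, which did not pass there, and the windows are set side by side for that contrast. Each is the 250 bases before the start on GRCh38.p14, plus strand: chr16:56682220-56682469 for MT1X and chr16:56608334-56608583 for MT2A. Capitals mark the metal response element, TGCACNC or TGCGCNC on either strand, a motif picked after the values were seen.
MT1X: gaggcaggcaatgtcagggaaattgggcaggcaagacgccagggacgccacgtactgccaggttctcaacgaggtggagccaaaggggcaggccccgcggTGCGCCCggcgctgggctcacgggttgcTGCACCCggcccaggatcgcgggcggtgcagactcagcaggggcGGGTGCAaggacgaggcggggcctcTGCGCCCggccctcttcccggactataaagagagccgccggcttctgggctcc
MT2A: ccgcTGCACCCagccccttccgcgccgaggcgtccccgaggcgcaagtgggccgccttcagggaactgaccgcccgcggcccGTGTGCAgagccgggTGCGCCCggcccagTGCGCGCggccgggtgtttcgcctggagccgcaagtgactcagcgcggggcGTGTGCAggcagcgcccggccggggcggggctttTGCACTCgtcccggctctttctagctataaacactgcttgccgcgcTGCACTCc
The MT1X window held 4 matches and the MT2A window 7. At least 1 match was found in 24.8% of 35116 promoter windows and at least 3 in 1.58%. Both windows thus held many matches. MT2A also read lower in HCC70 (-0.23), short of the threshold, and the 2 genes were not tested against each other. The windows at hand for MT1H and MT1B, both below the lower quartile in all 4 groups, held 8 and 3 matches.

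CP is also an acute phase protein, and 14 of 21 listed acute phase genes were measured. In HCC70, 4 fell (C3, CFB, C4A and ORM2) and none rose (1 at an unadjusted limma p under 0.05), or 28.6% against the 21.7% of all genes. In MDA-MB-231, 4 fell (C3, CFB, C4A and SAA1) and HPX rose, or 35.7% called against 27.8% of all genes. C3, the central complement component, went from 9.54, 9.70 and 9.64 to 7.44, 7.43 and 7.29 in HCC70, a fall of 4.73-fold (adjusted p = 1.2e-08). In MDA-MB-231 it went from 6.71, 7.01 and 6.91 to 6.13, 6.04 and 6.11, a fall of 1.72-fold (adjusted p = 4.1e-05). C3 was lower on every JQ1 array of each line, where groups did not overlap for 37.4% of all genes in HCC70 and 38% in MDA-MB-231. The fall of C3 was larger in HCC70 (difference -1.46, adjusted p = 1.3e-05).

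CFB, a protease of the alternative complement pathway, fell 2.60-fold in HCC70 (adjusted p = 1.5e-06) and 1.67-fold in MDA-MB-231 (adjusted p = 0.00015). C4A, whose near-identical copy C4B may share its probes, fell 3.23-fold in HCC70 (adjusted p = 5.0e-08) and 2.04-fold in MDA-MB-231 (adjusted p = 9.7e-07). The fall was larger in HCC70 for both (CFB adjusted p = 0.011, C4A adjusted p = 0.0018). SAA1, serum amyloid A, fell 1.97-fold in MDA-MB-231 (adjusted p = 2.3e-06) and was below the lower quartile in HCC70, where it read -0.17 (adjusted p = 0.21). LCN2, which binds iron-carrying siderophores, was picked out after its values were seen: it was 7.04-fold higher in HCC70 than in MDA-MB-231 with vehicle (adjusted p = 2.0e-08), and its HCC70 change was 0.17 (adjusted p = 0.60).

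HMOX1 is also a target of NRF2, the transcription factor of the oxidative stress response, and 4 of 12 listed NRF2 targets were measured. With HMOX1 counted, 3 rose and none fell in HCC70, and 2 rose in MDA-MB-231, where HMOX1 fell with a call that ended in 3 of the 12 fits without 1 array (adjusted p up to 0.070). For these 4 genes 75% were called in each line, against 21.7% of all genes in HCC70 and 27.8% in MDA-MB-231. TXNRD1, thioredoxin reductase, rose 2.16-fold in HCC70 (from 8.01, 8.07 and 8.07 to 9.20, 9.10 and 9.19; adjusted p = 6.0e-07) and 1.45-fold in MDA-MB-231 (adjusted p = 0.00013). SRXN1, sulfiredoxin, rose 1.48-fold in HCC70 (adjusted p = 0.0013) and 2.68-fold in MDA-MB-231 (from 8.41, 8.41 and 8.29 to 9.96, 9.73 and 9.69; adjusted p = 3.9e-07). Both rose in both lines, TXNRD1 more in HCC70 (adjusted p = 0.0024) and SRXN1 more in MDA-MB-231 (adjusted p = 0.0013).

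The genes next to CP in the annotation order were read beside it. Of 10 measured neighbours, 5 on each side, 1 fell in HCC70 and none rose (0 at an unadjusted limma p under 0.05), or 10% against 21.7% of all genes. In MDA-MB-231, 3 fell, or 30% against 27.8%: TM4SF1, HPS3 (-0.26, adjusted p = 0.027) and WWTR1, a Hippo pathway coactivator (-0.32, adjusted p = 0.017). The HPS3 call there ended without MDA-MB-231 vehicle array 1 or 2 or JQ1 array 1 or 3 (adjusted p up to 0.11), and the WWTR1 call without vehicle array 1 (0.075). HPS3, whose annotated span overlaps that of CP, read 11.72, 11.63 and 11.69 with vehicle and 11.57, 11.60 and 11.59 with JQ1 in HCC70. The JQ1 arrays were just below the vehicle arrays, a lack of overlap found for 37.4% of all genes. The change of -0.093 ± 0.0803 did not pass (adjusted p = 0.51). The 1 that fell was TM4SF1, a membrane protein of the tetraspanin-like L6 family, from 12.26, 12.19 and 12.03 to 11.07, 11.01 and 10.92, or 2.23-fold (adjusted p = 2.2e-06). It fell more in MDA-MB-231, 3.50-fold (adjusted p = 2.5e-08; difference 0.65, adjusted p = 0.0044), where the CP signal was near the bottom of the range throughout. TM4SF18, next to CP on that side, read -0.39 in HCC70 (adjusted p = 0.071). With vehicle, 8 of the 10 neighbours were higher in HCC70 than in MDA-MB-231 and none was lower, against 23.8% and 23.2% of all genes.

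**Figure D4:**
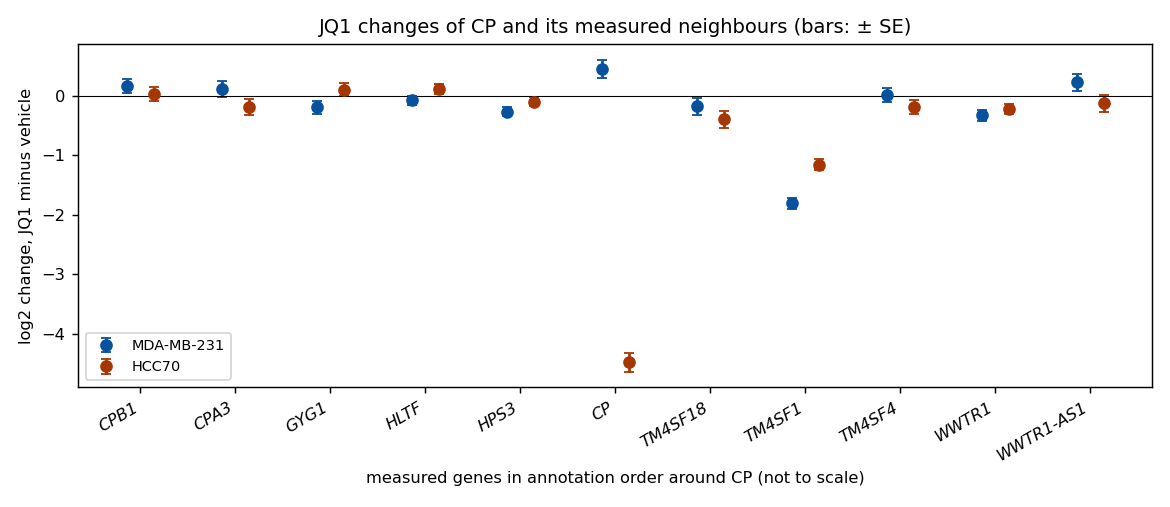
Change with JQ1 (y axis, log2, bars ± 1 SE, 3 against 3 arrays) of CP and the 5 measured genes on each side of it, in annotation order and not to scale (x axis), in MDA-MB-231 (blue) and HCC70 (brown). CP drops to -4.49 in HCC70, TM4SF1 drops in both lines, and the other 9 neighbours lie between -0.39 and 0.23.

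The genes whose pattern over the 4 group means lay closest to that of CP were found by the root mean square difference of means, each centred on the gene's own mean, over 14883 other genes. In order they were KIT (0.48), GSDMC (0.61), CFI (0.66), IFI44L (0.66), ERP27 (0.74), FYB1 (0.78), HEY2 (0.78) and TSPAN1 (0.79). KIT, a receptor tyrosine kinase, read 9.43, 9.48 and 9.41 with vehicle and 5.86, 6.76 and 6.004 with JQ1 in HCC70. CFI, the complement factor I protease, read 8.93, 9.03 and 8.71 with vehicle and 5.82, 5.60 and 5.75 with JQ1. IFI44L, an interferon-induced gene, read 7.98, 7.44 and 7.81 with vehicle and 3.52, 3.57 and 3.51 with JQ1. All 8 were high on the HCC70 vehicle arrays, low in MDA-MB-231 and lower with JQ1 in HCC70, which is what chose them, so they carry no test. None of the 8 is in the iron and copper lists, which held 70 of the 14884 genes with CP counted. With so small a share, nothing is read from this.

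**Figure D5:**
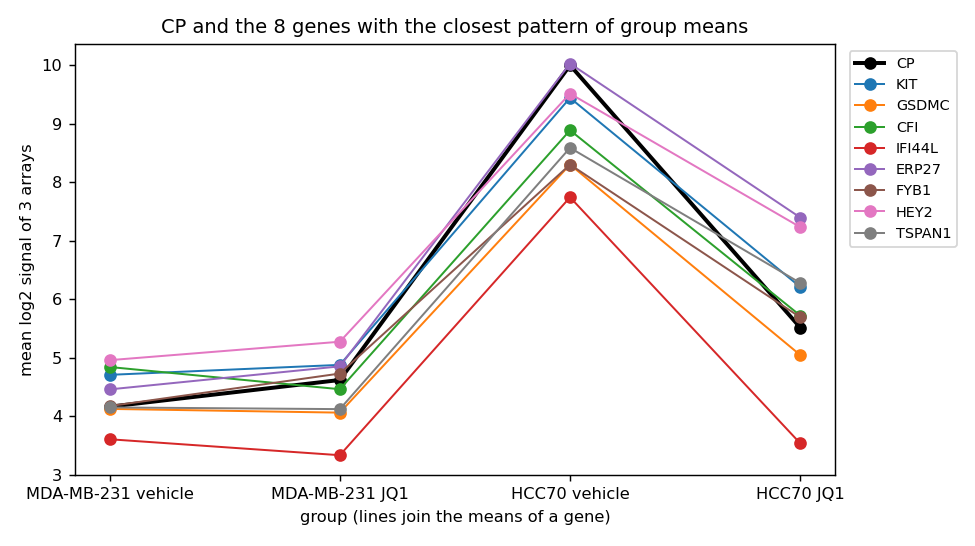
Mean log2 signal of 3 arrays (y axis) in each of the 4 groups (x axis) for CP (black) and the 8 genes whose centred group means lay closest to it, where lines only join the means of a gene. Each rises to its highest value in HCC70 with vehicle, CP at 10.00 and KIT at 9.44, and is lower with JQ1, CP at 5.52 and KIT at 6.21.

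Markers of other cells were read beside these results. Of the hepatocyte markers, 5 of 6 were measured. ALB and AHSG were below the lower quartile in all 4 groups, and APOB in all but MDA-MB-231 with JQ1. APOA1 and TTR were not below it in any group. The array means of the list ran from 4.87 to 5.20. No hepatocyte marker was called under JQ1 in either line by limma (1 in MDA-MB-231 and 0 in HCC70 at an unadjusted p under 0.05). The array means of 4 epithelial markers were 9.63 to 9.78 with vehicle and 10.16 to 10.25 with JQ1 in HCC70, where 3 rose. Those of 3 mesenchymal markers were 6.86 to 6.98 with vehicle and 5.05 to 5.47 with JQ1, where 2 fell. In MDA-MB-231, 3 epithelial markers rose and 1 fell (EPCAM, -1.74), and 1 mesenchymal marker fell. The KRT8 call among those epithelial rises ended without at least 1 array. The part of these shifts in the changes of CP and the other genes was not tested. Of 3 measured blood cell markers, 1 rose (CD68) and 1 fell (CD14) in HCC70, and 1 fell (CSF1R) in MDA-MB-231. The CD14 and CSF1R calls each ended without at least 1 array. Of all genes, 21.7% were called in HCC70 and 27.8% in MDA-MB-231. The array means of the blood cell markers ran from 7.52 to 8.20, and none was below the lower quartile in any group. Neither of the 2 measured erythroid markers was called under JQ1 by limma, adjusted or not (0 at an unadjusted p under 0.05). In the lines as a whole, the correlation of arrays was 0.989 to 0.995 within a group and 0.875 to 0.900 between the cell lines, with array medians from 6.16 to 6.26. Fewer cells of a type and less RNA per cell cannot be told apart in these bulk samples.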

How the data were processed

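RNA of MDA-MB-231 and HCC70 cells (150 ng per array, per the labels) was measured on 12 Human Gene 2.0 ST arrays. The deposited values are log2 signals per transcript cluster, made by the authors with RMA; the submitters' processing notes also name oligo and limma. The build was not given in the sources used here. Of 53617 clusters, 16098 were given 1 gene symbol, from RefSeq where the platform annotation matched it and otherwise from that annotation. The other 37519, with no symbol or with several, were left out and not counted apart. Where several clusters named a gene (779 genes), the one of highest mean was kept, giving 14884 genes.

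Group means of all 12 arrays were fitted with limma 3.58.1 (R 4.3.3, statmod 1.5.0), two-sided, with Benjamini-Hochberg adjustment over all genes, and called at 0.05. The code was also run on simulated data with independent noise between arrays and far fewer changed genes than were called here. No error rate for these data is taken from it. A change that ended below the lower quartile of a group's genes was read as a lower bound. Precision is limited by 3 arrays per group.

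Named genes were the members, up to 3 called genes of smallest p per list, direction and line, the 8 genes most like CP and 5 neighbours on each side. MT1G, MT2A, MT1E, MT1H, MT1B, STEAP4, PCBP1, HEPHL1, LCN2 and ORM2 were added after their values were seen. The members and lists were chosen with earlier results of these data known. RefSeq gene order gave the neighbours, and no array coordinates were used. The alternatives tried were a minimum log2 change of 1, quantile normalization, median centring, weighting of arrays, a variance trend with robust moderation, all clusters, a separate fit per line, a block for the replicate number, and each array left out. Vehicle and JQ1 arrays of the same number had r across genes of 0.155, 0.121 and 0.362 in MDA-MB-231. Arrays of unlike number there ran from -0.25 to 0.121, so only number 3 stood clearly apart. In HCC70 the same-number values were -0.059, 0.015 and 0.07, within the range of -0.142 to 0.135 for unlike numbers. The replicate numbers come from the sample titles, and only these correlations bear on whether arrays of equal number were paired.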

Additional observations from a re-analysis of the deposited data

Results flagged for a closer look

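These genes were noted because their JQ1 effects differed between the lines by limma's test of the difference itself. Values are the HCC70 change minus the MDA-MB-231 change on the log2 scale. This comparison called 15% of all genes. The search covered named genes only, without CP and the genes most like it. Many had been named for a call within 1 line on the same arrays, so the 15% is no fair base for them. Of listed genes outside the search, BLVRA (-0.68, adjusted p = 0.021), CIAPIN1 (0.62, 0.027) and CISD2 (0.45, 0.042) also passed, as did ORM2. The calls of BLVRA, CIAPIN1 and CISD2 each ended without at least 1 array. Outlying single arrays were not tested for in groups of 3. Among the members the differences were -1.04 for HEPH and 1.14 for HMOX1.

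More negative in HCC70 were MT1X (-1.91), C3 (-1.46), MT1G (-1.37), SRXN1 (-0.86), HPX (-0.77), C4A (-0.66), CFB (-0.64), TFR2 (-0.55), ISCA2, an iron-sulfur cluster assembly factor (-0.53), and CYBRD1 (-0.48). More positive in HCC70 were HFE (1.09), SAA1 (0.81), UROD (0.78), MELTF (0.67), TM4SF1 (0.65), TXNRD1 (0.58), CISD1, an iron-sulfur protein of the outer mitochondrial membrane (0.56), and HSPA9 (0.38). The difference for ISCA2 ended in 8 of the 12 fits without 1 array. That for CISD1 ended without MDA-MB-231 JQ1 array 2, HCC70 vehicle array 1 or HCC70 JQ1 array 1 (adjusted p up to 0.055). That for HSPA9 ended without HCC70 JQ1 array 2 or HCC70 vehicle array 3 (adjusted p up to 0.058). The MT1G, HFE and HPX differences held in all 12.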

How the results depend on the processing

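No result changed direction with its call under any alternative run, and CP stayed between -4.62 and -4.38 in HCC70 without any 1 array. Of the alternative values of the main results, 551 of 604 were counted as kept. A tested gene had to stay on its side of the threshold, and in its direction where called. A count had to stay within 1.5 times the main count. CP, which has no test, had to keep its direction and lie closer to its main value than its SD within groups. The causes of the other values below were not tested, beyond what the construction of an alternative implies (more features, fewer arrays, a size minimum). With the replicate number as a block, the calls were 4210 in MDA-MB-231 and 3236 in HCC70 against 4139 and 3229, no member's call changed (HMOX1 in MDA-MB-231 adjusted p = 0.028), and HFE, HSPA9 and BOLA3 were among the genes whose HCC70 calls ended (0.075, 0.091 and 0.077).
With all transcript clusters, 7496 features were called in MDA-MB-231, 4984 in HCC70 and 15776 between vehicle lines (7000 in the main fit), the other iron and copper genes in HCC70 were 3 higher and 8 lower, 3 were higher in the difference, and TF between lines had an adjusted p of 0.091 (0.28). Quantile normalization gave 18 iron and copper genes higher in MDA-MB-231 (7 in the main fit) and ended HMOX1 there (-0.31, 0.065). Median centring gave 13 higher in MDA-MB-231 and 8 lower in HCC70, HEPH passed in MDA-MB-231 (0.37, 0.038) and TF between lines did not (0.26, 0.059). Array weights called 5110 genes in HCC70 (2415 higher, 2695 lower), 16 iron and copper genes higher there and 11 higher in the difference, and TF passed in HCC70 (-0.27, 0.019). A variance trend with robust moderation ended TF between lines (0.28, 0.11), and fitting each line alone ended HMOX1 in MDA-MB-231 (-0.42, 0.054).
A minimum log2 change of 1 left 648 genes in MDA-MB-231 (119 higher, 529 lower; 1 and 3 of the iron and copper genes) and 380 in HCC70 (89 higher, 291 lower; 0 and 4), and it removed HMOX1 in MDA-MB-231 (-0.42) and HEPH (-0.73) and HMOX1 (0.73) in HCC70 by their size. An alternative chosen after seeing the data left out the 3 arrays numbered 3 that agreed least with their groups: HMOX1 in MDA-MB-231 ended (-0.37, 0.12) and 8 iron and copper genes were lower in HCC70.
Without 1 array, the calls ran from 3355 to 4236 in MDA-MB-231, 2506 to 3359 in HCC70, 1748 to 2376 for the difference and 6383 to 7100 between vehicle lines. The iron and copper genes higher in HCC70 ran from 3 to 9, those lower from 8 to 14, and those higher in the difference from 4 to 9 (4 without HCC70 JQ1 array 1 or 2). HMOX1 in MDA-MB-231 ran from -0.55 to -0.33, HEPH there from 0.23 to 0.38 and TF between lines from 0.22 to 0.32. Depth does not apply to arrays; the bottom of the signal range limits CP in MDA-MB-231, TF and HEPHL1.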
